A study of Mus musculus with 3 samples.

Results

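The ligands, antagonists, co-receptors, receptors and nuclear partner of Nodal signalling were followed across the germ layers of the E7.5 mouse embryo. The set was 10 genes chosen by symbol, *Nodal*, *Gdf1*, *Gdf3*, *Lefty1*, *Lefty2*, *Tdgf1*, *Cfc1*, *Acvr1b*, *Acvr2b* and *Foxh1*, and 9 of them were measured, among 17633 genes with at least 1 read in any library. *Gdf1* was not analysed here. All 1349 of its exonic bases lie within exons of *Cers1* on the same strand, so that reads of these genes cannot be told apart by position. Each of the 9 genes had reads in all 3 libraries.

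The samples were endoderm, mesoderm and epiblast of E7.5 embryos of the ICR strain, with no treatment or genetic change in the labels, and each was sequenced as 1 RNA-seq library. The study pooled RNA from many embryos and separated the layers by hand after digestion in trypsin and pancreatin, and its epiblast sample holds both neuroectoderm and primitive streak. The reads counted on genes came to 41.65 M for endoderm, 40.85 M for mesoderm and 42.71 M for epiblast. With 1 library per germ layer the differences have no replicate check, and all intervals are 95% intervals that cover the counting of reads only.

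Nodal is a secreted protein of the TGF-β family. It binds activin receptors together with a co-receptor of the EGF-CFC family, and the receptors phosphorylate Smad2 and Smad3, which enter the nucleus with Smad4 and act at genes bound by partners such as Foxh1. The pathway turns on *Nodal* itself and also its secreted antagonists, the Lefty proteins, and in the gastrulating embryo it is known for its role in forming mesoderm and endoderm and, later, in setting the left-right axis around the node.

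The labels were compared with marker genes of each tissue. All 8 genes of a visceral endoderm list were highest in the endoderm library, with a summed RPKM of 6370 against 4.73 in mesoderm and 3.999 in epiblast, and genes of definitive endoderm and axial mesendoderm were also highest there for 4 of 5 (summed RPKM 232.8, 55.8 and 4.68 in endoderm, mesoderm and epiblast, with *Gsc* at or below 0.396 in each). RPKM is the number of reads scaled to the length of the gene and to the depth of its library. In mesoderm, 7 of 8 mesoderm markers were highest, with *Msgn1* as the exception (summed RPKM 26.7, 552.6 and 154.1 in the same order). In epiblast, all 7 epiblast markers (166.5, 199.8 and 1538) and all 5 primitive streak markers (108.5, 102.0 and 278.4) were highest. For tissues outside these layers, the summed RPKM was in each library lower than that of the library's own markers. It was 45.8, 28.5 and 39.7 for 5 measured trophoblast genes, of which *Cdx2* is also an embryonic gene. Of these genes, *Esx1* (7.11, 0.0606 and 0.13) and *Plac1* (19.9, 6.25 and 0.569) were highest in endoderm and the other 3 in epiblast. The sums were 3.39, 4.44 and 0.905 for 3 primitive erythroid genes and 1.20, 7.39 and 3.89 for 3 decidual genes. In whole tissues, fewer cells of a type and less RNA per cell cannot be told apart.

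Only uniquely mapped reads were counted, so the sequence shared by the paralogs *Lefty1* and *Lefty2* bears on their counts. Their coding sequences, both 1104 bases long and taken from the GENCODE M21 transcripts of GRCm38, were identical at 1014 positions (91.8%), and the longest identical run was 140 bases. The stretch of 120 coding bases where they differ most is shown, with the differing bases in capitals. It lies in exon 1 of each gene, at chr1:180935155-180935274 for *Lefty1* and chr1:180893229-180893348 for *Lefty2*, both on the plus strand, and has 34 differences.
Lefty1, exon 1: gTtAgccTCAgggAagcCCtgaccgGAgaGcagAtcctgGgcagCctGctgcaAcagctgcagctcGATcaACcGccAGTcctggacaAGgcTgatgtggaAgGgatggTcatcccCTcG
Lefty2, exon 1: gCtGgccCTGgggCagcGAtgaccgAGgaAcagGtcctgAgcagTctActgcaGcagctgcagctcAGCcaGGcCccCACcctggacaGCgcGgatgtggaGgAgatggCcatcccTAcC

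A read that falls wholly in an identical run fits both genes, whereas a 50-base read in the exon 1 stretch fits 1 of them. Of the 50-base words of the *Lefty1* transcript, 17.9% also occurred in *Lefty2*, and 11.6% of those of *Lefty2* occurred in another gene, nearly all in *Lefty1*. At 90 bases the shares were 7.38% and 4.74%. *Tdgf1* shared 12.5% of its 50-base words with another gene, all with its pseudogene *Tdgf1-ps1*, and 6.29% at 90 bases, while *Nodal*, *Acvr1b*, *Acvr2b* and *Foxh1* shared 0. *Cfc1* overlaps exons of *Prss40* on the opposite strand over 289 of its 1040 exonic bases, and shared 24.3% of its 50-base words and 21.1% of its 90-base words with that gene, the largest shares among the 9 measured genes. *Prss40* was counted at 0, 2 and 0 reads. How strand was used in counting is not given in the sources used here.

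Among the ligands, *Nodal* was highest in endoderm and lowest in mesoderm. *Nodal* (chr10:61417972-61425338 on the plus strand of GRCm38) had 413 reads in endoderm against 13 in mesoderm and 197 in epiblast, which were RPKM values of 4.73, 0.152 and 2.20. The reads covered 85.5%, 38.5% and 83.2% of the gene length. The counting intervals of the 3 RPKM values (4.29 to 5.21, 0.0809 to 0.260 and 1.91 to 2.53) did not overlap. Endoderm exceeded mesoderm 31.2-fold (18.0 to 59.0) and epiblast 2.15-fold (1.81 to 2.56), and epiblast exceeded mesoderm 14.5-fold (8.28 to 27.7). The study's criteria for a differentially expressed gene were RPKM above 5 in at least 1 library of a pair, Fold Change above 2 and FDR below 0.001, here from the exact test after Audic and Claverie, which compares 2 libraries and not the germ layers as conditions. *Nodal* stayed under the RPKM criterion in endoderm, with a counting interval that included 5, and so met it in no pair. With RPKM above 1 it met all the criteria in all 3 pairs. On the log2(RPKM+1) scale, which shrinks the differences of low genes, *Nodal* differed by -2.32 for mesoderm over endoderm, -0.84 for epiblast over endoderm and 1.475 for epiblast over mesoderm, against -4.96, -1.10 and 3.86 with nothing added.

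*Nodal* marks the node at this stage, and the genes of a node list shared its highest library. All 5 genes (*Noto*, *Foxj1*, *Shh*, *Nog* and *Chrd*) were highest in endoderm, with summed RPKM of 85.2 in endoderm against 6.83 in mesoderm and 18.5 in epiblast. *Noto*, a homeobox gene of the node, was at 15.9, 0.886 and 2.56, and *Foxj1*, which drives the formation of motile cilia, at 42.1, 2.25 and 10.7. *Nodal* in epiblast was at 46.5% of its endoderm level, above the 5.16% to 25.8% of the 5 node genes. In mesoderm it was at 3.21%, against 2.3% to 7.25% for 4 of the node genes and 42.2% for *Nog*, which was higher in mesoderm than in epiblast (RPKM 2.54 and 1.46), unlike *Nodal*. The part of node cells in the *Nodal* level of the endoderm library was not tested.

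**Figure D1:**
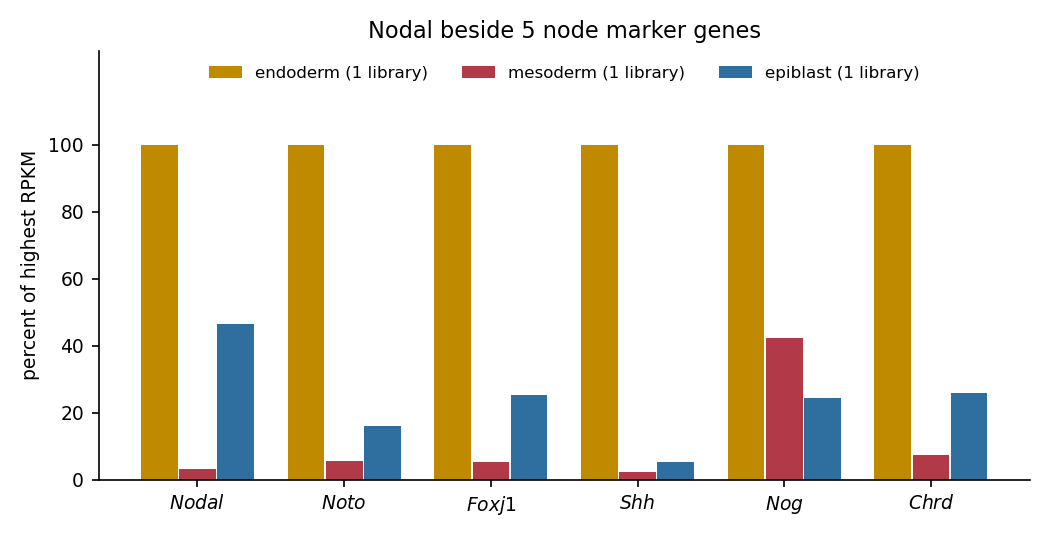
RPKM of *Nodal* and of 5 node marker genes as a percent of the highest of the 3 libraries (y axis), by gene (x axis), with 1 bar for each germ layer library. All 6 genes are highest in endoderm, and *Nodal* keeps 46.5% in epiblast and 3.21% in mesoderm.

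*Gdf3* (chr6:122605403-122610087 on the minus strand), a ligand of the same family that also uses EGF-CFC co-receptors, was close to the limit of detection. It had 5 reads in endoderm against 25 in mesoderm and 34 in epiblast (RPKM 0.0569, 0.290 and 0.378). Mesoderm exceeded endoderm 5.10-fold (1.92 to 17.1) and epiblast exceeded endoderm 6.63-fold (2.58 to 21.7), while epiblast over mesoderm was 1.30 with an interval (0.754 to 2.27) that included 1. Its lowest library was endoderm, the highest one of *Nodal*, and all 3 values lay far below the RPKM criterion.

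Of the Lefty antagonists, *Lefty2* was the more abundant in each library and was highest in mesoderm. *Lefty2* (chr1:180893108-180899103 on the plus strand), which is known for its expression in nascent mesoderm, had 270 reads in endoderm against 4159 in mesoderm and 1659 in epiblast, or RPKM values of 2.56, 40.2 and 15.3. Mesoderm exceeded endoderm 15.7-fold (13.9 to 17.8), epiblast exceeded endoderm 5.99-fold (5.27 to 6.84) and mesoderm exceeded epiblast 2.62-fold (2.48 to 2.78). *Lefty2* was the only one of the 9 genes that met the criteria in all 3 pairs. With Fold Change above 4 its difference between mesoderm and epiblast no longer met them. The order of the libraries, mesoderm above epiblast above endoderm, was the reverse of that of *Nodal*.

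*Lefty1* (chr1:180935022-180938400 on the plus strand), known for its expression in anterior visceral endoderm and later in the midline, had 2 reads in endoderm against 41 in mesoderm and 23 in epiblast, with RPKM values of 0.0296, 0.619 and 0.332. The reads covered 5.67%, 23.6% and 25.7% of its length, against 94.9% to 97.2% for *Lefty2*. In mesoderm the 41 reads covered a smaller part of the gene than did the 13 reads of *Nodal* (38.5%). Whether some of the reads counted for *Lefty1* came from *Lefty2* was not tested. Mesoderm over endoderm was 20.9-fold (5.43 to 178), epiblast over endoderm 11.2-fold (2.77 to 98.2) and mesoderm over epiblast 1.86-fold (1.09 to 3.25), and with RPKM values below 1 it met the criteria in no pair. Per length, *Lefty2* exceeded *Lefty1* 86.4-fold in endoderm (23.7 to 717) against 64.9-fold in mesoderm (47.8 to 90.6) and 46.2-fold in epiblast (30.7 to 73.0), with intervals that overlapped. Summing the paralogs as 1 gene gave log2 differences of 3.98, 2.60 and -1.38, against 3.97, 2.58 and -1.39 for *Lefty2* alone, for mesoderm over endoderm, epiblast over endoderm and epiblast over mesoderm.

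The co-receptors did not share a pattern. *Tdgf1* (chr9:110939603-110946158 on the minus strand), which encodes Cripto, had 189 reads in endoderm against 821 in mesoderm and 685 in epiblast (RPKM 2.33, 10.3 and 8.23). It was higher in mesoderm than in endoderm 4.43-fold (3.78 to 5.22) and higher in epiblast than in endoderm 3.54-fold (3.01 to 4.18), and met the criteria in both pairs. Mesoderm over epiblast was 1.25 (1.13 to 1.39), under the Fold Change criterion.

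*Cfc1* (chr1:34535648-34544313 on the plus strand), which encodes Cryptic, had 1170 reads in endoderm against 1713 in mesoderm and 228 in epiblast (RPKM 27.1, 40.4 and 5.14). Here the epiblast library was the low one. Endoderm exceeded epiblast 5.26-fold (4.56 to 6.09) and mesoderm exceeded epiblast 7.85-fold (6.84 to 9.06), and both differences met the criteria, whereas mesoderm over endoderm was 1.49 (1.39 to 1.61) and did not. Within a library, *Cfc1* was 11.6-fold above *Tdgf1* per length in endoderm (9.96 to 13.6) and 3.92-fold above it in mesoderm (3.601 to 4.26). In epiblast it was at 0.625 of *Tdgf1* (0.535 to 0.727). The main co-receptor transcript was thus *Cfc1* in endoderm and mesoderm and *Tdgf1* in epiblast. The coding sequences of these genes aligned with 45.0% identity and no identical run above 7 bases.

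*Acvr1b* was the most even member, and *Acvr2b* was lower in endoderm than in the other libraries without meeting the criteria. *Acvr1b* (chr15:101174067-101213684 on the plus strand), the type I receptor known as ALK4, had 1671, 1773 and 1931 reads in endoderm, mesoderm and epiblast (RPKM 12.2, 13.2 and 13.8). The folds between libraries were 1.08 (1.01 to 1.16), 1.13 (1.05 to 1.20) and 1.04 (0.976 to 1.11) for mesoderm over endoderm, epiblast over endoderm and epiblast over mesoderm, and the first of these changed sign when the libraries were scaled by the median of ratios. *Acvr2b* (chr9:119402118-119434995 on the plus strand), a type II receptor, had 650, 1234 and 1309 reads (RPKM 9.13, 17.7 and 17.9). Mesoderm over endoderm was 1.94 (1.76 to 2.13) and epiblast over endoderm 1.96 (1.79 to 2.16), just under the Fold Change criterion, which both passed when the libraries were scaled to the same upper quartile. Mesoderm and epiblast differed by a factor of 1.02 (0.938 to 1.10), whose direction turned with scaling to the same RPKM total. The ratio of *Acvr2b* to *Acvr1b* per length was 0.745 in endoderm (0.680 to 0.817) against 1.33 in mesoderm (1.24 to 1.43) and 1.30 in epiblast (1.21 to 1.39).

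*Foxh1*, the forkhead partner of Smad2 and Smad3, was the most abundant member in each library. *Foxh1* (chr15:76668225-76669948 on the minus strand) had 3633 reads in endoderm against 12481 in mesoderm and 6471 in epiblast (RPKM 72.2, 252.9 and 125.4), and ranked 1069, 263 and 579 among all genes of these libraries. Mesoderm exceeded endoderm 3.503-fold (3.38 to 3.64) and epiblast 2.02-fold (1.96 to 2.08), and both met the criteria. The second lay at the edge of the Fold Change criterion and was lost when the libraries were scaled to the same upper quartile (log2 difference of epiblast over mesoderm -0.95). Epiblast over endoderm was 1.74 (1.67 to 1.81) and did not meet the criteria. *Smad2* was at 8.42, 8.37 and 6.74, so that *Foxh1* exceeded it per length 8.57-fold in endoderm against 30.2-fold in mesoderm and 18.6-fold in epiblast.

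**Figure D2:**
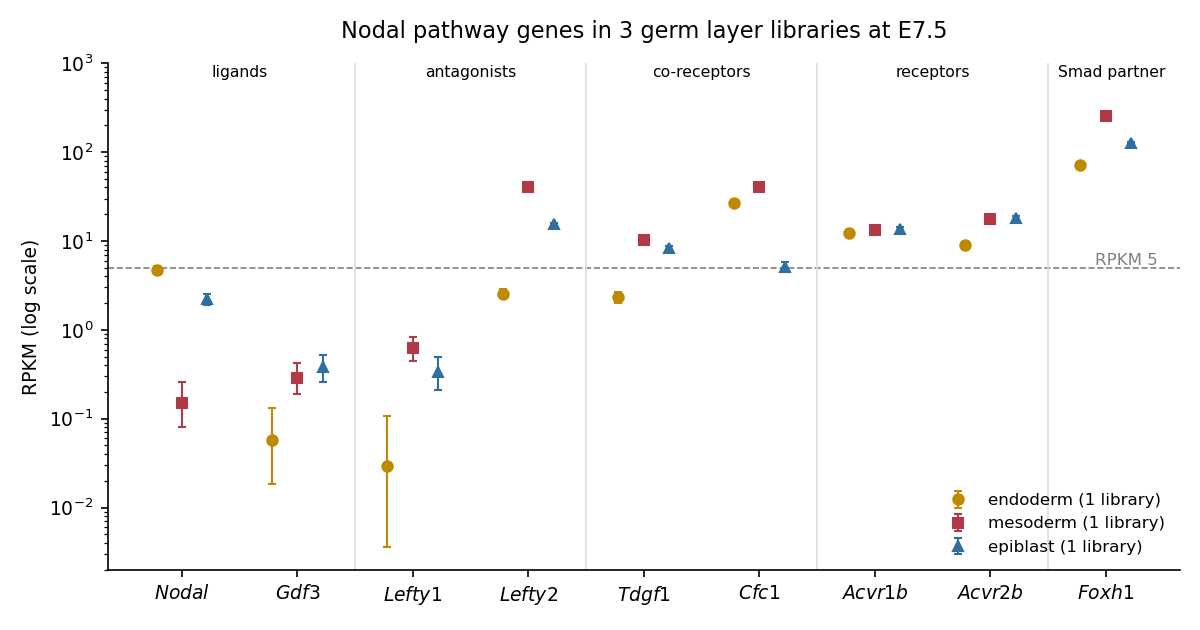
RPKM of the 9 measured genes (y axis, log scale), grouped by role (x axis), in the 1 library of each germ layer. Points are RPKM values, bars are 95% Poisson intervals of the reads and cover counting only, and the dashed line is RPKM 5. *Nodal* is highest in endoderm, *Lefty2* and *Foxh1* in mesoderm, and *Acvr1b* lies between 12.2 and 13.8 in all 3 libraries.

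Counted together, 6 of the 9 genes had RPKM above 5 in at least 1 library of each pair, and 3 of these met the criteria in each pair. Between endoderm and mesoderm these were *Foxh1*, *Lefty2* and *Tdgf1*, all higher in mesoderm. Of all 8867 genes tested there, 23% met the criteria, 14.4% with the higher value in endoderm and 8.56% with the higher value in mesoderm. Between endoderm and epiblast, *Lefty2* and *Tdgf1* were higher in epiblast and *Cfc1* in endoderm. Of 8843 genes tested 24.6% met the criteria, 15.7% higher in endoderm and 8.94% higher in epiblast. The part of visceral endoderm RNA in the differences against the endoderm library was not tested.

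Between mesoderm and epiblast, *Cfc1*, *Foxh1* and *Lefty2* were all higher in mesoderm than in the epiblast library. Of 8340 genes tested, 10.3% met the criteria there, 5.3% higher in mesoderm and 5.02% higher in the epiblast library. Over the 6 genes above RPKM 5 the median log2 difference was 1.38 for mesoderm over endoderm, 0.89 for epiblast over endoderm and -0.67 for epiblast over mesoderm, where the medians of all genes above RPKM 5 in either library were 0.10, 0.08 and -0.02. With *Nodal*, *Gdf3* and *Lefty1* included, the medians of all 9 were 1.81, 0.97 and -0.33. Over the 9 measured genes the highest library was mesoderm for 5, epiblast for 3 and endoderm for *Nodal* alone. For the 3 genes highest in epiblast, *Gdf3*, *Acvr1b* and *Acvr2b*, the interval of epiblast over mesoderm included 1, so their highest library was not settled. The members were chosen with earlier results of these data known, and the pairs share libraries. Summed over the 9 genes the RPKM was 130.3 in endoderm against 375.8 in mesoderm and 188.8 in epiblast, of which *Foxh1* made up the largest part in each.

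**Figure D3:**
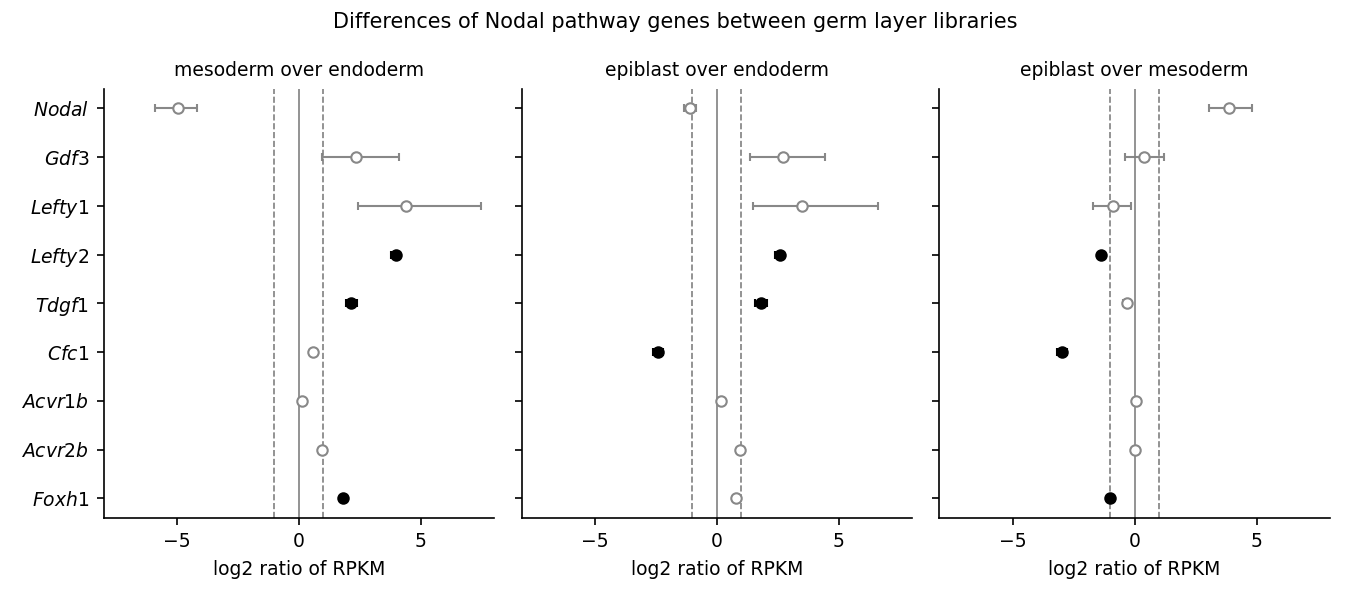
Log2 ratio of RPKM between libraries (x axis) for the 9 measured genes (y axis), with 1 panel for each pair and 1 library per germ layer. Bars are 95% intervals for counting only, dashed lines mark a Fold Change of 2, and filled points met the criteria. *Lefty2* is filled in all 3 panels, and *Nodal* lies far to the left in the first (31.2-fold higher in endoderm) but is open in each panel because its RPKM stays below 5.

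The ratio of antagonist to ligand within a library does not depend on the scaling between libraries. *Lefty2* over *Nodal*, per length, was 0.540 in endoderm (0.462 to 0.631) against 264 in mesoderm (154 to 497) and 6.96 in epiblast (6.0 to 8.11). Endoderm was the only library where the ligand exceeded this antagonist. The secreted antagonist *Cer1*, which binds Nodal directly and is known from anterior visceral and definitive endoderm, was highest in endoderm and lowest in epiblast. *Cer1* had RPKM values of 137.9 in endoderm against 47.4 in mesoderm and 0.659 in epiblast, and its ratio to *Lefty2* was 53.9 (47.8 to 61.1), 1.18 (1.13 to 1.23) and 0.0430 (0.0317 to 0.0571). Of this pair of antagonists, endoderm held mainly *Cer1*, epiblast mainly *Lefty2*, and mesoderm both at like levels. *Cer1* is also in the definitive endoderm list above and made up the largest part of its sum in endoderm and mesoderm. Its level thus also entered the check of the labels.

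**Figure D4:**
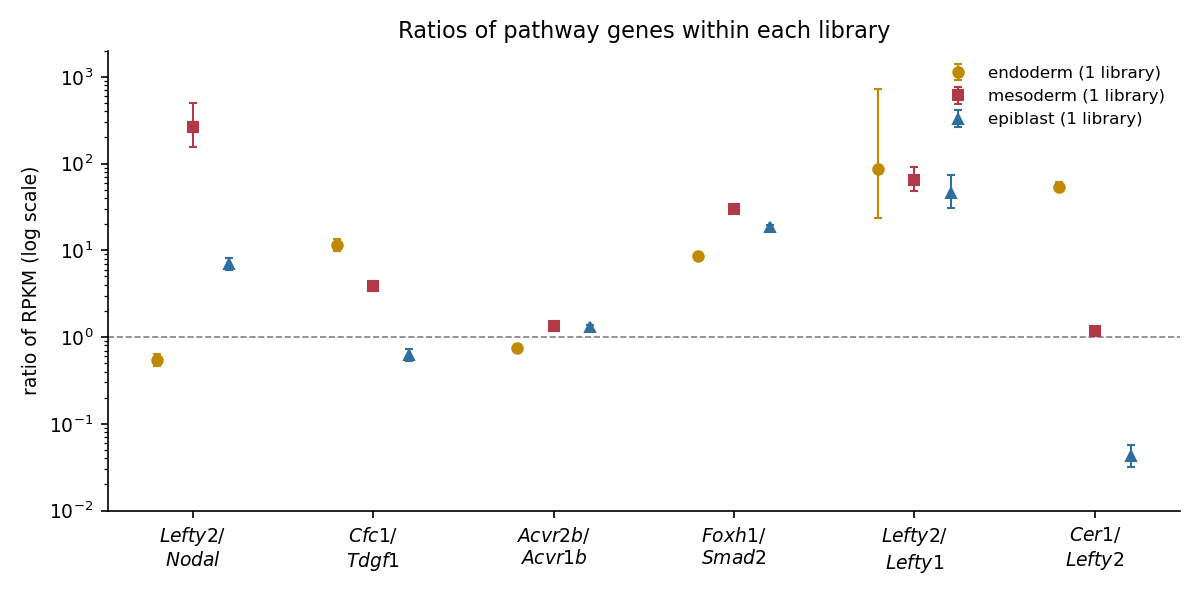
Ratio of RPKM between genes of the pathway (y axis, log scale; the dashed line is 1) within the 1 library of each germ layer, for 6 gene pairs (x axis). Bars are 95% intervals for counting only. *Lefty2* over *Nodal* is below 1 in endoderm and 264 in mesoderm, and *Cer1* over *Lefty2* is 53.9 in endoderm and 0.0430 in epiblast.

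A list of 53 other genes of the pathway was examined, of which 52 were measured. Between endoderm and mesoderm 13 of the 39 above RPKM 5 met the criteria, 5 higher in endoderm and 8 in mesoderm. Between endoderm and epiblast it was 15 of 35 (8 higher in endoderm and 7 in epiblast), and between mesoderm and epiblast 12 of 36 (7 higher in mesoderm and 5 in epiblast). These shares stand beside the 23%, 24.6% and 10.3% of all genes tested. For the list, the median log2 difference was -0.013 for mesoderm over endoderm, 0.03 for epiblast over endoderm and -0.13 for epiblast over mesoderm, where it was 0.10, 0.08 and -0.02 for all genes above RPKM 5.

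Among other antagonists, *Cer1* and *Fst* met the criteria in all 3 pairs. *Cer1* was 2.91-fold higher in endoderm than in mesoderm (2.80 to 3.03) and 209-fold higher than in epiblast (158 to 283). *Fst*, which encodes the activin-binding protein follistatin, was at 2.35, 14.5 and 50.7 in endoderm, mesoderm and epiblast, 21.6-fold higher in epiblast than in endoderm (18.9 to 24.7) and 3.49-fold higher than in mesoderm (3.29 to 3.70). *Bambi*, a receptor without a kinase domain that dampens TGF-β signalling, was at 4.39, 7.50 and 2.77 and was higher in mesoderm than in epiblast. The other antagonists, *Dand5* (2.52, 0.711 and 2.25), *Fstl3* (0.0738, 0.978 and 0.216) and *Tmeff1* (41.3, 59.5 and 46.3), met the criteria in no pair. *Dand5* and *Fstl3* stayed under the RPKM criterion. With RPKM above 1, *Dand5* met the criteria in both pairs with mesoderm.

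Of the proprotein convertases that cleave the Nodal precursor, *Furin* was at 45.1, 17.5 and 12.1 and was higher in endoderm than in mesoderm (2.58-fold, 2.47 to 2.69) and epiblast (3.74-fold, 3.57 to 3.92). *Pcsk6* had low values of 0.983, 1.68 and 2.22. Of the other ligands acting through Smad2 and Smad3, *Tgfb1* and *Tgfb2* passed RPKM 5, both in mesoderm alone. *Tgfb1* (3.42, 10.7 and 1.80) and *Tgfb2* (2.42, 5.64 and 0.897) were both higher in mesoderm than in the other libraries, by 3.12- and 2.33-fold against endoderm and by 5.93- and 6.28-fold against epiblast. The *Inhba* and *Inhbb* genes, which encode the activin subunits, had 3 reads or fewer in every library.

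The other receptors were *Tgfbr1* (16.7, 16.1 and 13.7), *Acvr2a* (4.97, 6.02 and 3.16), *Tgfbr2* (1.89, 1.37 and 0.551), *Tgfbr3* (12.4, 4.37 and 3.47) and *Acvr1c*, the type I receptor ALK7, which had RPKM values up to 0.00542. *Tgfbr3*, the TGF-β co-receptor betaglycan, was higher in endoderm in both pairs with endoderm and was the 1 receptor of this list to meet the criteria. Like *Acvr1b* among the members, *Tgfbr1* stayed within 1.22-fold. The Nicalin-Nomo complex, which restrains Nodal signalling in the endoplasmic reticulum, was highest in endoderm for all 3 genes, with *Nomo1* at 65.1, 35.4 and 32.4, *Ncln* at 59.7, 43.0 and 36.0 and *Tmem147* at 35.1, 20.5 and 32.1. *Tmem147* was only 1.09-fold higher in endoderm than in epiblast (1.01 to 1.18). This margin was as small as the shift between these libraries from scaling to the same upper quartile. *Nomo1* met the criteria between endoderm and epiblast (2.01-fold, 1.95 to 2.07) but not with scaling to the same upper quartile.

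Of the Smads above RPKM 5, 1 of 3 met the criteria between endoderm and mesoderm and 0 of 3 in both pairs with epiblast. *Smad3* (9.57, 21.8 and 12.4) was higher in mesoderm than in endoderm 2.28-fold (2.16 to 2.40). *Smad2*, *Smad4* (35.3, 49.97 and 52.2) and the inhibitory *Smad7* (3.27, 4.45 and 1.12) met the criteria in no pair. *Smad7* stayed under the RPKM criterion. It was higher than in epiblast 3.98-fold in mesoderm (3.42 to 4.66) and 2.92-fold in endoderm (2.49 to 3.43). With RPKM above 1 it met the criteria in both these pairs. Of the 14 Smad partners and regulators 13 were above RPKM 5, of which 1, 1 and 0 met the criteria between endoderm and mesoderm, endoderm and epiblast, and mesoderm and epiblast, where 23%, 24.6% and 10.3% of all genes did. The corepressor *Tgif2* (8.07, 24.2 and 27.2) was that gene in both pairs, and it was higher in mesoderm (3.003-fold, 2.79 to 3.24) and in epiblast (3.36-fold, 3.13 to 3.62) than in endoderm.

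Genes known as targets of Nodal signalling were high in different libraries. Of those above RPKM 5, 5 of 10 met the criteria between endoderm and mesoderm, 9 of 10 between endoderm and epiblast and 7 of 8 between mesoderm and epiblast, beside 23%, 24.6% and 10.3% of all genes tested. *Sox17* and *Foxa2*, endoderm regulators, were at 39.5 and 44.0 in endoderm against 1.001 and 1.39 in mesoderm and 0.322 and 2.58 in epiblast. *Mesp1*, a regulator of early mesoderm, was at 1.36, 50.5 and 11.6, 37.2-fold higher in mesoderm than in endoderm (28.9 to 48.7) and 4.35-fold higher than in epiblast (3.96 to 4.78). *Sox17* was 39.4-fold higher in endoderm than in mesoderm (33.1 to 47.4) and *Foxa2* 31.6-fold (26.3 to 38.2). The 4 target genes higher in epiblast than in mesoderm, named after their values were seen, were *Eomes*, *Mixl1*, *Otx2* and *T*. The 3 higher in mesoderm than in epiblast were *Mesp1*, *Hhex* (7.89-fold, 5.94 to 10.7) and *Lhx1* (5.70-fold, 5.0 to 6.52), and *Hhex* was also 15.4-fold higher in endoderm than in epiblast (11.7 to 20.6). These genes take part in tissue identity as well as in the pathway. All target genes of the list except *Lhx1* and *Otx2* are also in the marker lists above. These are *Sox17*, *Foxa2*, *Hhex*, *Gsc*, *Mesp1*, *Eomes*, *Mixl1*, *T* and *Fgf8*.

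**Figure D5:**
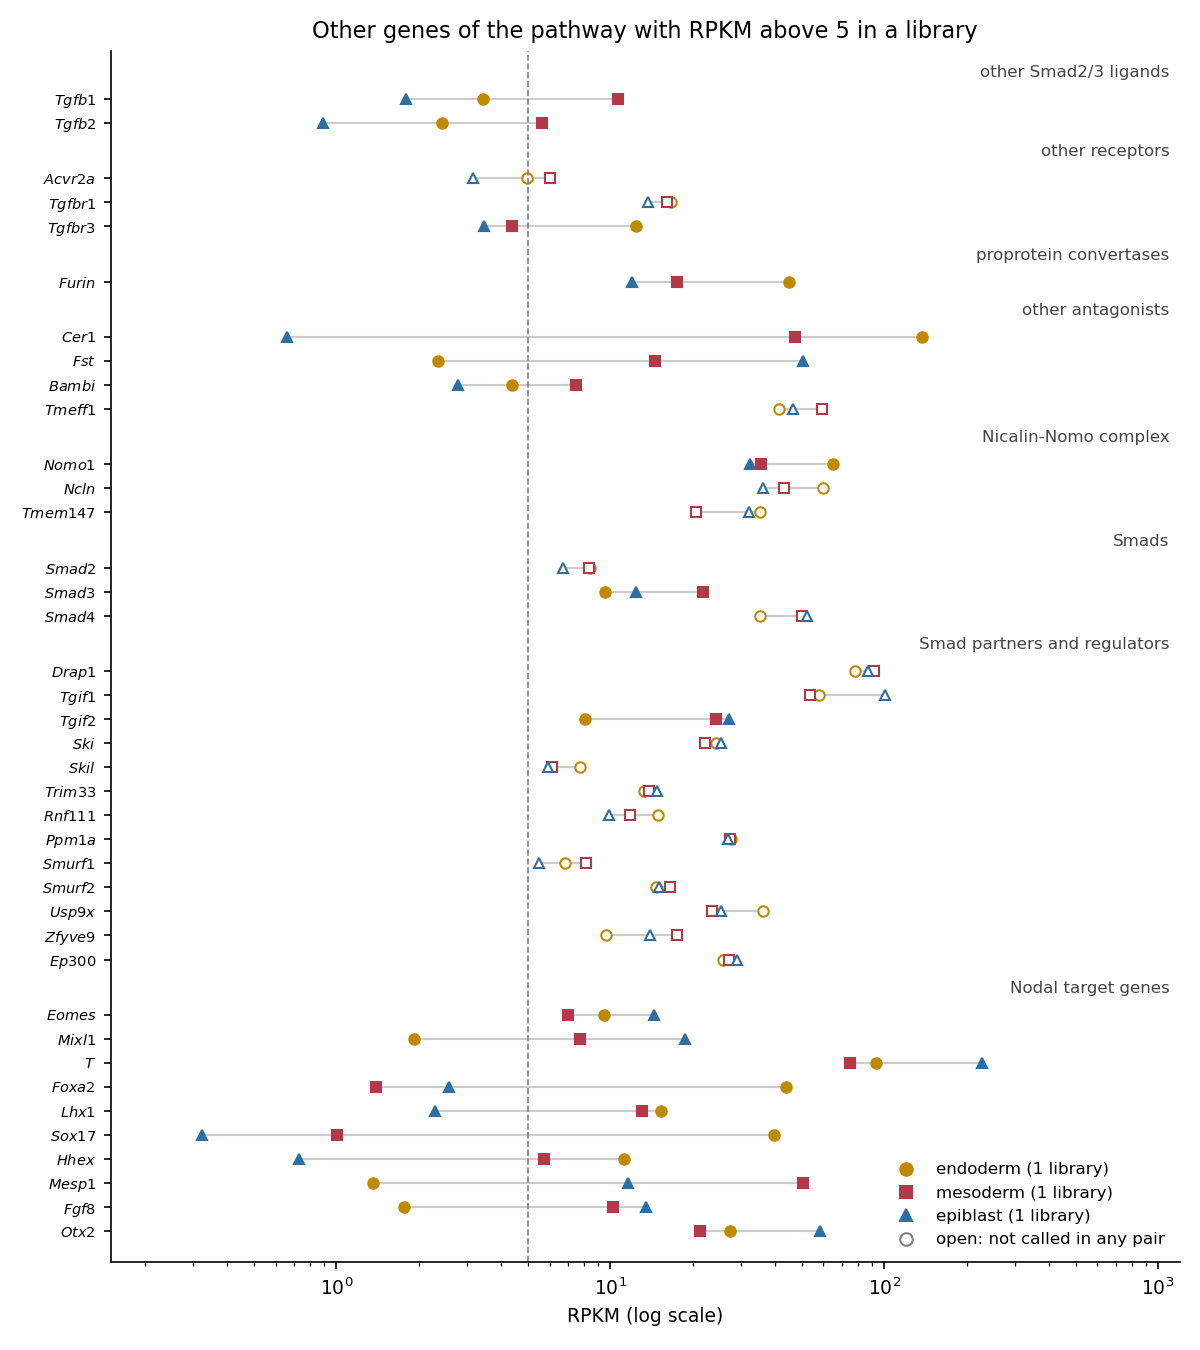
RPKM (x axis, log scale) of the 39 other pathway genes with RPKM above 5 in a library (y axis), grouped by role, with 1 point for each germ layer library. Filled points mark the 20 genes that met the criteria in at least 1 pair, and the dashed line is RPKM 5. *Cer1* and *Fst* run in opposite directions, and 1 of the 13 plotted Smad partners and regulators is filled.

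Promoter windows were examined for *Acvr1b*, which was even between libraries, beside *Nodal* and *Cfc1*, which were not. RefSeq sequences of GRCm38.p6, from 250 bases before to 50 bases after the gene start, were matched for 6 of the 10 genes. The windows of *Nodal* (chr10:61417722-61418021, plus strand), *Cfc1* (chr1:34535398-34535697, plus strand) and *Acvr1b* (chr15:101173822-101174121, plus strand) were chosen after the values were seen and are shown with CG dinucleotides in capitals.
Nodal: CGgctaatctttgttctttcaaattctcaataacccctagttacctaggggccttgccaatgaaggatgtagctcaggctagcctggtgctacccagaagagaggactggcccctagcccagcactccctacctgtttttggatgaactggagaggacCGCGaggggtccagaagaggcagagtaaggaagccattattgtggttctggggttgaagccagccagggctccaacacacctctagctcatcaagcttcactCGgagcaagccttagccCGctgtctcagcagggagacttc
Cfc1: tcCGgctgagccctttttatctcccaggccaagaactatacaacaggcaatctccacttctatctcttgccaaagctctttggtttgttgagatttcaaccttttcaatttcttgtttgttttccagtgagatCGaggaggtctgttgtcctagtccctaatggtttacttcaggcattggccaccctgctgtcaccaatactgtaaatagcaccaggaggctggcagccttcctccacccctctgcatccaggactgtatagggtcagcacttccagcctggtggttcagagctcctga
Acvr1b: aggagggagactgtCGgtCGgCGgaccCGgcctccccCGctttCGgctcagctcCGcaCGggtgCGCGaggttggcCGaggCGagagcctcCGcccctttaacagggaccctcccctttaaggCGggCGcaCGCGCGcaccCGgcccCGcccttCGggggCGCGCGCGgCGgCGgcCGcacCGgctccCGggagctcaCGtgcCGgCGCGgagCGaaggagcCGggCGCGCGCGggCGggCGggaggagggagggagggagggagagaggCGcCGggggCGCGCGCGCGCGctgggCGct

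The *Acvr1b* window held 51 CG dinucleotides with 79.7% G or C, and that of *Acvr2b* held 27 with 73.3%. *Nodal* held 5 (54.0%), *Cfc1* 2 (49.0%) and *Tdgf1* 7 (41.7%), where the median of all 32851 windows was 7 with 52.7% G or C. None of 5 motifs, searched on both strands and none containing another, occurred in the windows of these genes: the Foxh1 motif as AATCCACA (0.855% of all windows) or AATACACA (0.980%), the Smad motif as GTCTAGAC (0.213%) or CAGACA (21.0%), and the TATA box as TATAAA (13.6%). This says only that these letters are not in these windows.

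For each gene that met the criteria, the genes with the most similar pattern were taken from 9135 genes above RPKM 5 in a library, by the distance between their log2(RPKM+0.1) values after centring over the 3 libraries. For *Lefty2* these were *Lef1* (5.78, 71.4 and 32.2), *Snai1* (5.27, 67.3 and 24.9) and *Chst2* (0.487, 10.4 and 3.01), and 23 genes lay within a distance of 0.5. *Snai1* is also in the mesoderm list. For *Cfc1* they were *Zfpm1*, *Pkdcc* and *Fzd4*, and only 8 genes lay within that distance. *Tdgf1* was nearest to *Tro*, *Lphn2* and *Efna1*, with 133 genes within the distance, and *Foxh1* to *Efna2* and *Robo1*, with 136. The likeness rests on 3 libraries that all genes share.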

How the data were processed

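Endoderm, mesoderm and epiblast RNA from mouse embryos at E7.5 was sequenced with paired-end reads as 1 library each, and the samples were grouped by their tissue labels. Adapters and reads of low quality were removed by the authors, who deposited for each gene a count of uniquely mapped reads, without normalization. The deposited RPKM divides this count by the gene length and by the reads counted on genes, and the deposited coverage is the percent of the gene length with reads. The submitters' processing notes name TopHat, mm10 and mm9. The counting program, the annotation and the build of the gene table are not given in the sources used here.

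Counts and RPKM values were used as deposited. Genes were called with the study's criteria, which were RPKM>5 in at least 1 library of a pair, Fold Change>2 and FDR<0.001 by the exact test after Audic and Claverie, two-sided, with Benjamini-Hochberg adjustment over all genes with a read in either library. The quasi-likelihood test of edgeR could not be fitted, since 1 library per germ layer gives no dispersion. Intervals are exact Poisson intervals of counts and exact conditional binomial intervals of ratios. The members and lists were chosen with earlier results of these data known. Named genes were all members, in each list the genes called in at least 1 pair (up to 4 by largest called fold), all genes of lists of up to 6 genes, the 3 genes nearest in pattern to each called member, and overlapping or paralogous genes. Some named genes lie outside this rule, among them *Msgn1*, *Inhba*, *Inhbb*, *Lhx1* and the target genes higher in epiblast than in mesoderm. Alternatives were other RPKM and Fold Change minimums, Benjamini-Yekutieli or no FDR, 4 other scalings, pseudocounts of 0.1 and 1, the summed Lefty genes, and the exact test of edgeR at an assumed coefficient of biological variation (BCV). Positions, transcripts and overlaps came from GENCODE M21 of GRCm38 and promoters from RefSeq. Gene positions are those of GRCm38, whichever build the counts used. The software was edgeR 4.0.16 in R 4.3.3 and, in Python 3.11.15, SciPy 1.17.1, numpy 2.4.6, pandas 2.3.3 and matplotlib 3.10.9. *Gdf1*, *Mstn* and 5 of the marker genes were not analysed here. A pathway gene, a gene near a member in pattern and a coding stretch are not reported here.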

Additional observations from a re-analysis of the deposited data

How the results depend on the processing

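The number of members that met the criteria was 3 in each pair, and stayed between 2 and 4 with RPKM>1, with RPKM>10, without FDR, with Benjamini-Yekutieli adjustment, with either pseudocount and under the 4 other scalings. Without an RPKM minimum it was 6 between endoderm and mesoderm and 6 between endoderm and epiblast, by *Nodal*, *Gdf3* and *Lefty1*. It was 5 between endoderm and epiblast with Fold Change>1.5 and 1 (*Cfc1*) between mesoderm and epiblast with Fold Change>4. There *Foxh1* and *Lefty2* lost the call, so that no member met the criteria in all 3 pairs. edgeR's exact test with an assumed BCV of 0.2 left 1 between mesoderm and epiblast, again *Cfc1*, with the same losses. With 0.4 it left 1 between endoderm and mesoderm (*Lefty2*), and 0 in both pairs with epiblast, where the RPKM and Fold Change criteria with an unadjusted p under 0.05 gave 3 and 1. For the other pathway genes the counts of 13, 15 and 12 became 6, 9 and 6 with Fold Change>4, and 3, 5 and 1 with edgeR at a BCV of 0.4. At a BCV of 0.2 they became 7 between endoderm and mesoderm and 7 between mesoderm and epiblast. The share of all genes that met the criteria is given with the main settings only. The changes in these counts thus cannot be set beside those of all genes. Of the folds of single members under the alternatives 375 kept direction and call, 15 gained the call, 16 lost it and 2 changed sign. The 2 were *Acvr1b* for mesoderm over endoderm with the median of ratios (log2 -2.557e-05) and *Acvr2b* for epiblast over mesoderm with the same RPKM total (log2 -0.03486). Only the 4 other scalings and the summed Lefty genes could change a sign. The RPKM, Fold Change, FDR and BCV settings left each fold unchanged, and a pseudocount shrinks a fold without turning it. The 375 thus says little on how stable direction was. A pseudocount of 1 shrank the differences of the low members: for mesoderm over endoderm *Nodal* went from -4.96 to -2.32, *Lefty1* from 4.39 to 0.65 and *Gdf3* from 2.35 to 0.29. The scalings moved all log2 differences against endoderm by -0.11 (TMM and median of ratios) and by up to 0.13 (same upper quartile, epiblast). The comparison of *Gdf1* beside *Cers1* was not run. No replicate could be left out. No paired analysis was possible because each group has 1 library.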

Other observations

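*Nodal* met the criteria in no pair, and the genes nearest to it in pattern lie outside the rule for named genes and were looked up after its values were seen. By the same distance they were *Erbb3* (RPKM 8.002 in endoderm against 0.329 in mesoderm and 3.29 in epiblast), *Bspry* (10.8, 0.534 and 6.03) and *Dtx4* (8.40, 0.317 and 3.24), and 19 of 9135 genes lay within a distance of 0.5. *Erbb3* encodes a receptor of the neuregulin family. As for the other members, this likeness is over 3 libraries and describes them only.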
